A study of Mus musculus with 19 samples.

Results

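Glutamate, GABA-A and glycine receptor subunits were followed in mouse sensory neurons sorted by the itch receptor MrgprA3. The set holds every gene of the table whose symbol names an AMPA, delta, kainate, NMDA or metabotropic glutamate receptor, a GABA-A receptor or a glycine receptor subunit, 45 of 18666 genes. Of these, 22 reached at least 1 FPKM (fragments per kilobase of transcript, scaled to the mapped fragments of the library) in at least 4 of the 19 libraries and were tested, and 23 were described only. Gabra5 and Gria3 entered narrowly, with at least 1 FPKM in 5 libraries, and Gabrd stayed out narrowly, with 3.

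The neurons came from dorsal root ganglia, T11 to L6, of male C57BL/6 mice aged 2 months in which MrgprA3+ neurons carry a genetic GFP label; the construct behind the label is not given in the sources used here. Mice with allergic contact dermatitis (ACD) received 0.5% squaric acid dibutylester in acetone on the abdomen on days 1 to 3 and on the lower back on days 8 to 12, control mice received acetone alone, and ganglia were taken on day 13. There were 5 mice per treatment, and GFP+ (MrgprA3+) and GFP- (MrgprA3-) neurons were sorted from each. The 4 groups were MrgprA3+ control (n = 5), MrgprA3- control (n = 5), MrgprA3+ ACD (n = 4; replicate 3 not analysed here) and MrgprA3- ACD (n = 5). The MrgprA3- gate was set on cells shaped like the labelled ones, so that population is a mixture of sensory neuron classes.

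AMPA, kainate and NMDA receptors are cation channels that glutamate opens, whereas metabotropic glutamate receptors signal through G proteins. GABA-A and glycine receptors are chloride channels, and all of the ion channels among these receptors are assembled from several subunits. In the ganglion their subunits supply both the cell body and the central terminals in the spinal cord, where kainate, NMDA, GABA-A and group III metabotropic receptors act presynaptically on transmitter release, and GABA depolarises primary afferents because their chloride concentration is kept high.

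The 5 promoter windows below belong to subunits on either side of the population difference described next: Gria2, Glrb and Gabra2 were lower in MrgprA3+ neurons of control mice, whereas Gria4 and Grin1 did not pass the test. Each runs 5′ to 3′ from 250 bases before to 30 bases after the transcription start (RefSeq, GRCm38.p6, all on the minus strand), and capitals mark motif matches on either strand. The windows lie at chr3:80802806-80803085 (Gria2), chr3:80913631-80913910 (Glrb), chr9:4796205-4796484 (Gria4), chr2:25319158-25319437 (Grin1) and chr5:71095820-71096099 (Gabra2).
Gria2: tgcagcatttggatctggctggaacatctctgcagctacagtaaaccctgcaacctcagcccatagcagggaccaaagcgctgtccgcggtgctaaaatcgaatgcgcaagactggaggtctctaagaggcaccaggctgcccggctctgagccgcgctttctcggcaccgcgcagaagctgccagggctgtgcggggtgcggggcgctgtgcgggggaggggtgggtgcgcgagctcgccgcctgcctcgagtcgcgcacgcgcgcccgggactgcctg
Glrb: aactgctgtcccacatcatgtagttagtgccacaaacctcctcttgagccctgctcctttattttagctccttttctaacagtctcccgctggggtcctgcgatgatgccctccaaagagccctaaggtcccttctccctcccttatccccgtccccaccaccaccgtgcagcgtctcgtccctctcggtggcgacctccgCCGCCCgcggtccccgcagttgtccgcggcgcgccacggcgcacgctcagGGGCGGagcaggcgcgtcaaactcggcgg
Gria4: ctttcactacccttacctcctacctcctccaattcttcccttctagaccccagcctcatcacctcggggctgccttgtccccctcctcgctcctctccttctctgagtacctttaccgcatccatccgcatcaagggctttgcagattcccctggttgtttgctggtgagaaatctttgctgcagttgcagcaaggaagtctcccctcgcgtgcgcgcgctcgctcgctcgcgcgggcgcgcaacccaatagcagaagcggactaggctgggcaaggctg
Grin1: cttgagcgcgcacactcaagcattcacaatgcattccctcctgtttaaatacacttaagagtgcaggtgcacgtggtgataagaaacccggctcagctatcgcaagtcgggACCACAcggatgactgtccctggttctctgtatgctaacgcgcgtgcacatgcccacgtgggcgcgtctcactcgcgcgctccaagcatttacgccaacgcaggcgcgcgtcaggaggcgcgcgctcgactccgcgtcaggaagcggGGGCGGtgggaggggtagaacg
Gabra2: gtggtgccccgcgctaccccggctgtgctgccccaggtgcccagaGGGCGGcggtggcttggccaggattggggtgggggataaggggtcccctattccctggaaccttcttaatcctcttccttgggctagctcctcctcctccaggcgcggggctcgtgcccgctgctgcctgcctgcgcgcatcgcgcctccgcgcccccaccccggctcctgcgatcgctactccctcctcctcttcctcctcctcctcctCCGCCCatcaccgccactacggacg
The letters searched were GGGCGG for the GC box, TATAAA for the box of that name near many start sites, TGACGT for the core of the cyclic AMP response element and TGTGGT for the RUNX site. Gabra2 and Glrb each held 2 GC boxes, Grin1 held 1 GC box and 1 RUNX site, and Gria2 and Gria4 held none of the 4 motifs. Of the 45 subunits 31 had a window in the table, and the 10 matched subunits that were lower in control mice had 17 windows. A GC box was in 7 of these 17 windows (41.2%) against 34.7% of all 32851 windows, a TATA box in 3 against 13.1%, a RUNX site in 1 against 15.6% and the response element core in 0 against 7.26%. The windows were rich in G and C, from 59.3% in Gria4 to 70% in Gabra2. These matches describe letters only.

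The libraries held an estimated 10.4 to 21.3 M fragments each (M, 1000000). Mrgpra3 itself averaged 1131 FPKM (SD 197) in MrgprA3+ control and 20.2 FPKM (SD 4.12) in MrgprA3- control libraries, and 940 (SD 101) against 19.96 FPKM (SD 3.97) in ACD mice. Of the 8 markers of the NP2 class, to which MrgprA3 neurons belong, 7 were higher in MrgprA3+ neurons of control mice. Of the 10 markers of the nonpeptidergic NP1 class 5 were lower there, Grik1 of the receptor set among them, and 1 was higher. For NP3 6 of 7 markers were lower and for large diameter neurons 9 of 9. The counts were 4 of 4 for low-threshold C fibres and 4 of 5 for peptidergic neurons (1 higher). Summed FPKM of the NP1 list was 440 to 805 in MrgprA3+ and 865 to 1296 in MrgprA3- control libraries, and that of the large diameter list 29.5 to 56.1 against 153 to 222. The corresponding sums were 32.1 to 51.7 against 158 to 253 for NP3, 7.72 to 40.4 against 182 to 260 for low-threshold C fibres, and 239.7 to 397 against 1081 to 1390 for peptidergic neurons. Satellite glia markers (5 of 8 tested lower) summed to 210 to 389 against 433 to 559 FPKM, and Schwann cell markers (5 of 8 lower, 1 higher) to 1336 to 1608 against 1160 to 1437, of which Pmp22 made up most. No list was at 0 as a whole. The 7 macrophage and leukocyte markers (1 tested, lower) summed to 0.18 to 3.78 against 1.71 to 8.81 FPKM. The 8 endothelium and fibroblast markers (2 of 3 tested lower) summed to 5.88 to 11.34 against 15.85 to 39.63 FPKM. From these lists Ptprc, Adgre1, Cdh5 and Col1a1 were listed at 0 in all MrgprA3+ control libraries, while other members were above 0. Since the tissue was sorted in bulk, fewer cells of a type and less RNA per cell cannot be told apart. How far the makeup of each population set the subunit differences was not tested.

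In control mice at least 1 subunit of each family with a tested member was lower in MrgprA3+ than in MrgprA3- neurons. The delta receptors had no tested member. For the NMDA receptors the lower subunit was Grin3a alone, which entered the test through the MrgprA3- libraries, whereas Grin1 did not pass. By limma on log2(FPKM + 1), with Benjamini-Hochberg adjustment over 11996 genes and a threshold of 0.05, 17 of the 22 tested subunits were lower and 0 higher, where 18.4% of all tested genes were lower and 8.64% higher. The 17 were 7 of 9 GABA-A, 3 of 4 AMPA, 2 of 3 kainate, 1 of 2 NMDA, 3 of 3 metabotropic subunits and the glycine receptor subunit. The values of MrgprA3+ and MrgprA3- libraries did not overlap for 14 subunits, all lower, against 12% of genes lower without overlap. The median difference of the 22 was -1.15 in log2, against -0.14 over all tested genes. All 22 passed the expression filter on the MrgprA3- libraries alone, and 10 of them did not pass it on the MrgprA3+ libraries alone: Gabra3, Gabra5, Gabrb1, Gabrb2, Gabrg1, Gria3, Grik2, Grin3a, Grm4 and Grm8. These 10 entered the test through the libraries in which they were high, so that the counts over the 22, and the p-values of these 10 in both treatments, are a description. A filter within the 9 MrgprA3+ libraries kept 12 subunits, of which 9 were lower, against 13.9% of the genes it kept. A filter of at least 5 FPKM also left 12, with 9 lower against 17.9%, and one on a mean of at least 1 FPKM left 17, with 14 lower against 17.1%. Of all genes past the threshold 68.0% were lower with the deposited scaling, 54.7% after median-ratio and 55.3% after quantile rescaling, which moved the median gene from -0.14 to -0.04 and 0.00. The subunit counts were then 16 and 14 lower, 0 higher, and no called subunit changed direction.

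**Figure D1:**
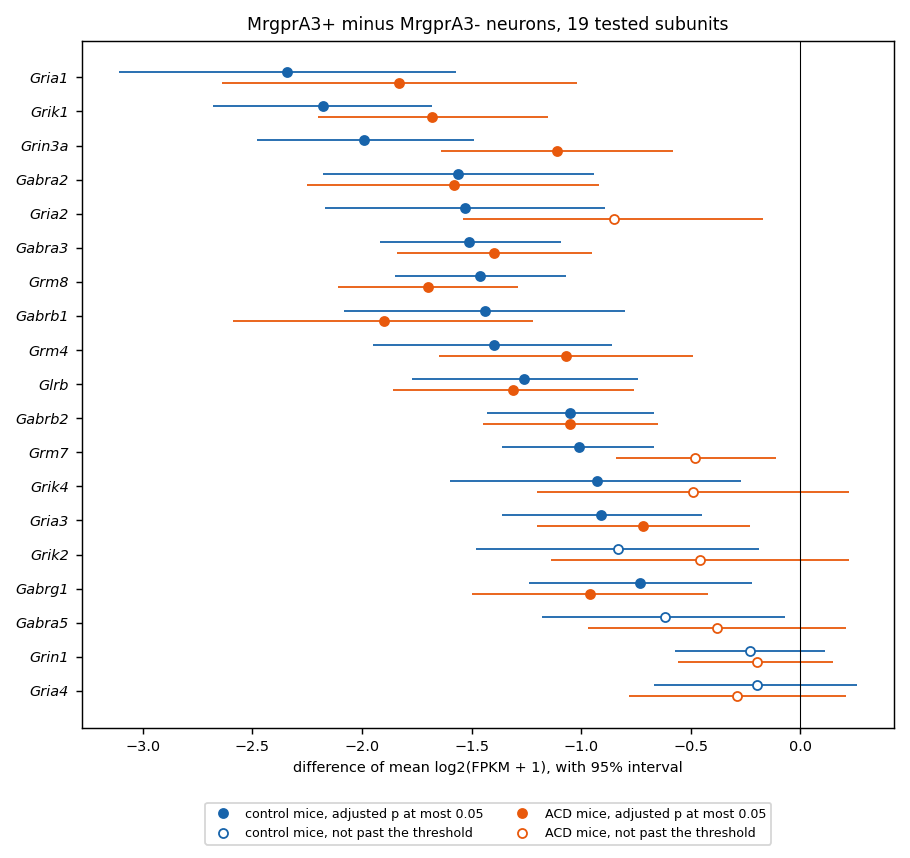
Difference between MrgprA3+ and MrgprA3- neurons for 19 of the 22 tested subunits in control (blue) and ACD (orange) mice, as the difference of mean log2(FPKM + 1) with its 95% interval. Filled points passed an adjusted p of 0.05: 15 in control and 12 in ACD mice, all below 0.

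Among the kainate receptor subunits Grik1 (GluK1), a subunit long known from small sensory neurons, was the most abundant member of the whole set in every group. In control mice it stood at 45.0, 29.1, 60.0, 69.1 and 111 FPKM in the MrgprA3+ libraries and at 281, 301, 311, 221 and 214 FPKM in the MrgprA3- libraries. All MrgprA3+ values lay below all MrgprA3- values, with replicate 5 the highest of the former. The means were 62.8 (SD 30.9) and 265 FPKM (SD 45.3), a log2 difference of -2.18 (SE 0.24; limma adjusted p = 5.86e-07). In ACD mice the MrgprA3+ libraries held 73.3, 50.5, 69.5 and 104 FPKM and the MrgprA3- libraries 243, 194, 205, 254 and 274 FPKM, again without overlap (-1.68, SE 0.25; limma adjusted p = 5.03e-05).

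Grik4 (GluK4), which needs a partner such as GluK1 to form a channel, was the other abundant kainate subunit. Its values in control mice were 7.13, 9.96, 10.5, 2.59 and 3.48 FPKM in MrgprA3+ and 13.4, 14.3, 15.3, 14.7 and 6.48 FPKM in MrgprA3- libraries. One MrgprA3- library, replicate 5, fell among the MrgprA3+ values, and the groups overlapped. The difference was -0.93 in log2 (SE 0.32; limma adjusted p = 0.0341) and did not pass without MrgprA3+ replicate 4 or 5 (0.107 and 0.0869) or without any one of MrgprA3- replicates 1 to 4 (0.0626 to 0.0826). It also did not pass with the compared groups fitted alone (0.0545), without the filter (0.0634) or after either rescaling (0.0596 and 0.0682). In ACD mice Grik4 stood at 8.56, 7.23, 7.97 and 15.7 against 15.4, 17.2, 16.5, 6.54 and 15.99 FPKM, overlapping, with a difference of -0.49 (95% interval -1.20 to 0.22). Grik2 (GluK2), the kainate subunit that prevails in much of the brain, averaged 0.514 against 1.36 FPKM in control mice and did not pass (-0.83; adjusted p = 0.0502); without MrgprA3+ replicate 5, at 2.42 FPKM, its difference was -1.18 (adjusted p = 0.00125). Grik3 and Grik5 never reached 1 FPKM. Grik1 therefore held 87.0% of the summed kainate FPKM in MrgprA3+ control (SD 8.87) and 94.7% in MrgprA3- control libraries (SD 1.04), and Grik4 held 12.1% (SD 9.23) and 4.56% (SD 1.16).

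**Figure D2:**
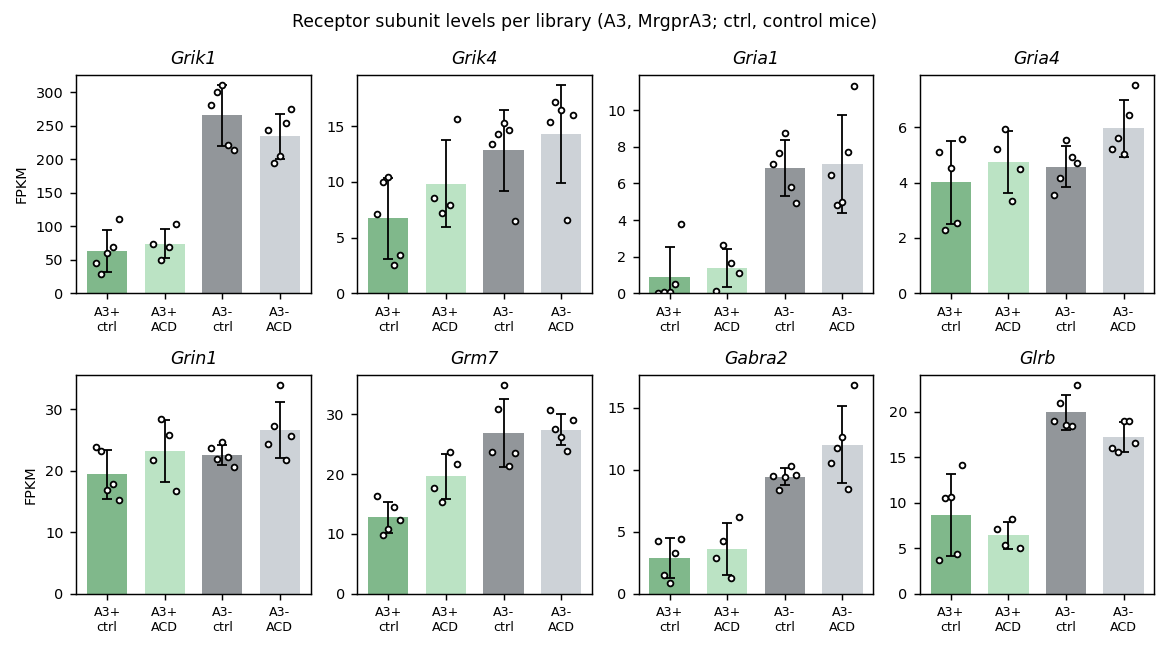
FPKM of 8 abundant subunits in each library (points) with the group mean (bars) and SD (error bars), for MrgprA3+ (green) and MrgprA3- (grey) neurons of control and ACD mice. Grik1 reached at most 111 FPKM in MrgprA3+ and at least 194 FPKM in MrgprA3- libraries. Within each treatment the populations overlap for Grik4, Gria4 and Grin1.

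AMPA receptor subunits divided. Gria1 (GluA1) was at 0.03, 0.05, 0.07, 0.49 and 3.79 FPKM in MrgprA3+ control libraries and at 7.06, 7.65, 8.77, 5.78 and 4.93 FPKM in MrgprA3- control libraries. Replicate 5 stood apart from the other 4 MrgprA3+ libraries yet below every MrgprA3- library. The difference was -2.34 in log2 (SE 0.37; limma adjusted p = 4.86e-05), the largest of the set on the log2(FPKM + 1) scale, which understates the change of subunits at lower FPKM. In ACD mice Gria1 stood at 0.11, 2.64, 1.66 and 1.11 against 6.45, 4.84, 4.99, 7.73 and 11.3 FPKM, without overlap (-1.83, SE 0.39; adjusted p = 0.00158).

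Gria2 (GluA2), whose edited form makes AMPA channels impermeable to calcium, was lower in control mice (1.25 against 4.82 FPKM; -1.53, SE 0.31, adjusted p = 0.000687, limma). In ACD mice it averaged 3.29 against 6.28 FPKM and did not pass (-0.85, SE 0.33; adjusted p = 0.0659), though it did without MrgprA3+ replicate 4, the highest of its group (-1.08; 0.0287). Gria3 (GluA3) was near the detection limit in MrgprA3+ control libraries, at 0 to 0.07 FPKM, against 0.48 to 1.68 FPKM (-0.91, SE 0.22; adjusted p = 0.00366). Its difference in ACD mice (-0.72, SE 0.24; adjusted p = 0.0307) did not pass without any one of MrgprA3+ replicates 1, 2 and 4 or MrgprA3- replicates 1, 3 and 4 (0.0514 to 0.097), nor with the compared groups fitted alone (0.0642) or with the replicate block (0.0924). After quantile rescaling the Gria3 call was lost in both control and ACD mice (limma adjusted p = 0.0544 and 0.192).

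Gria4 (GluA4), by contrast, was at 5.10, 2.28, 4.51, 2.55 and 5.58 FPKM in MrgprA3+ and at 3.56, 4.17, 5.52, 4.93 and 4.70 FPKM in MrgprA3- libraries of control mice. The ranges overlapped, although 2 of the 5 MrgprA3+ libraries lay below every MrgprA3- library. The difference was -0.20 in log2 with a 95% interval from -0.67 to 0.26 (limma adjusted p = 0.547). In ACD mice the values were 5.22, 5.93, 3.32 and 4.49 against 5.22, 5.60, 5.03, 6.45 and 7.52 FPKM, again overlapping (-0.29, 95% interval -0.78 to 0.21). As a share of the summed AMPA FPKM, which is per transcript length, Gria4 made up 43.8% to 93.1% in MrgprA3+ control (mean 73.4%) and 21.9% to 30.6% in MrgprA3- control libraries (mean 26.6%). In ACD mice its share was 31.9% to 59.0% (mean 48.8%) against 25.6% to 34.6% (mean 29.7%), so that the ranges of the 2 populations met in ACD mice. The summed AMPA level itself was 2.45 to 12.7 FPKM in MrgprA3+ and 15.4 to 20.2 FPKM in MrgprA3- control libraries. The shares were not tested.

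**Figure D3:**
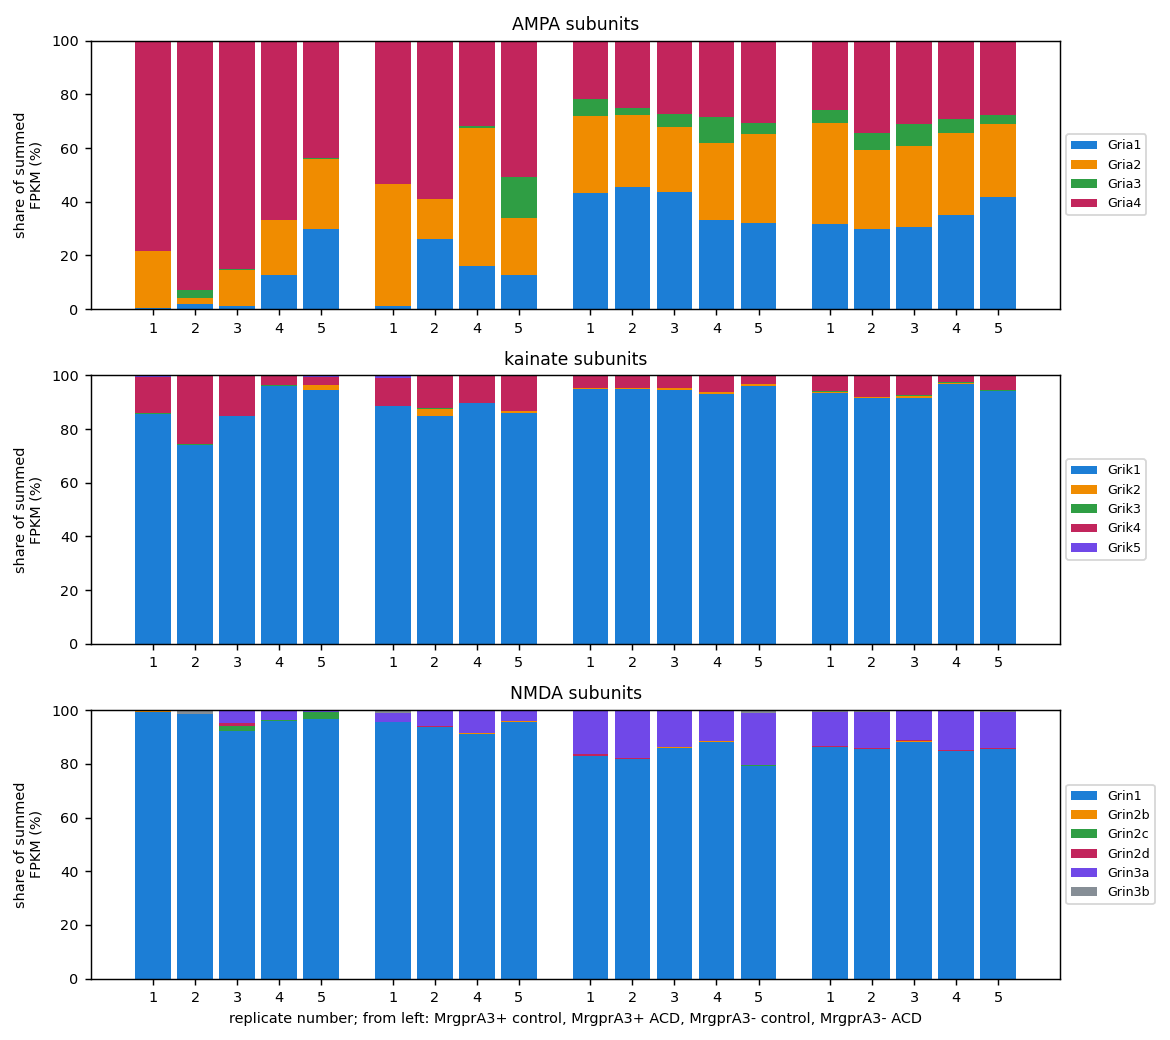
Share of each family's summed FPKM held by each of its subunits, in percent, 1 bar per library in the order MrgprA3+ control, MrgprA3+ ACD, MrgprA3- control, MrgprA3- ACD. Gria4 averages 73.4% of the AMPA total in the first group and 26.6% in the third, and Grik1 87.0% and 94.7% of the kainate total.

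Of the NMDA receptor subunits only the obligatory Grin1 (GluN1) and Grin3a (GluN3A), which lowers calcium entry through the receptor, were abundant enough to test. Grin1 was at 23.9, 23.2, 16.8, 17.8 and 15.2 FPKM in MrgprA3+ and at 23.8, 21.9, 24.7, 22.3 and 20.5 FPKM in MrgprA3- libraries of control mice. These ranges overlapped, and the difference was -0.23 in log2 (95% interval -0.57 to 0.11; limma adjusted p = 0.316). In ACD mice Grin1 held 21.8, 28.4, 25.9 and 16.7 against 24.4, 27.4, 33.9, 21.8 and 25.7 FPKM, overlapping as well (-0.20, 95% interval -0.56 to 0.15). An antisense gene, Grin1os, averaged 7.85, 9.18, 10.1 and 10.7 FPKM in MrgprA3+ control, MrgprA3- control, MrgprA3+ ACD and MrgprA3- ACD libraries. Whether the authors counted by strand is not given in the sources used here, so reads of Grin1 and Grin1os may not have been told apart.

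Grin3a was lower in MrgprA3+ neurons, at 0.04 to 0.85 against 2.81 to 4.99 FPKM in control mice (-1.99, SE 0.24; limma adjusted p = 1.54e-06) and at 0.66 to 2.35 against 3.53 to 4.30 FPKM in ACD mice (-1.11, SE 0.26; adjusted p = 0.00284). The glutamate-binding subunits Grin2b, Grin2c and Grin2d never reached 1 FPKM, their highest values being 0.08, 0.41 and 0.23 FPKM; other genes of this kind were not analysed here. Over the 6 NMDA subunits analysed, Grin1 held 96.6% of the summed NMDA FPKM in MrgprA3+ control (SD 2.79) and 83.6% in MrgprA3- control libraries (SD 3.57).

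Among the metabotropic glutamate receptors the tested genes were the group III members Grm4, Grm7 and Grm8, which couple to inhibition of adenylyl cyclase. Grm7 (mGlu7) was at 16.3, 9.77, 10.9, 14.6 and 12.4 FPKM in MrgprA3+ and at 23.7, 30.8, 34.9, 21.3 and 23.6 FPKM in MrgprA3- libraries of control mice. No value of one group reached into the other (-1.01, SE 0.17; limma adjusted p = 7.78e-05). In ACD mice the values were 17.8, 15.4, 23.7 and 21.7 against 30.7, 27.6, 26.2, 23.8 and 29.0 FPKM. The groups did not overlap there either, by a margin of 23.68 against 23.79 FPKM, and the test was not passed (-0.48, SE 0.18; adjusted p = 0.0580). It was passed without MrgprA3+ replicate 4, the highest of its group (-0.57; 0.0375), and with the compared groups fitted alone (0.0427).

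Grm8 was listed at no more than 0.02 FPKM in MrgprA3+ control libraries and at 1.26 to 2.32 FPKM in MrgprA3- control libraries (-1.46, SE 0.19; limma adjusted p = 3.32e-06), and Grm4 at no more than 0.08 against 1.25 to 2.34 FPKM (-1.40, SE 0.26; 0.000325). Both were lower in ACD mice as well (-1.70 and -1.07; adjusted p = 1.55e-06 and 0.0077), although 1 MrgprA3+ library there, replicate 2, held 1.61 FPKM of Grm4. After quantile rescaling the Grm4 call in ACD mice was lost (0.0535). Grm5, a group I receptor that drives phospholipase C, and the group II receptors Grm2 and Grm3 never reached 1 FPKM, nor did Grm6, the receptor of retinal ON bipolar cells.

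Among the GABA-A receptor alpha subunits, which set much of the receptor's pharmacology, Gabra2 is the one most often named for primary afferents. It was at 4.24, 1.47, 0.85, 3.29 and 4.38 FPKM in MrgprA3+ and at 9.50, 8.41, 9.46, 10.3 and 9.58 FPKM in MrgprA3- libraries of control mice. The MrgprA3- values lay within a narrow range above all MrgprA3+ values (-1.56, SE 0.30; limma adjusted p = 0.000434). In ACD mice the values were 2.85, 4.26, 1.26 and 6.17 against 10.6, 11.7, 12.7, 8.42 and 16.8 FPKM, also without overlap (-1.58, SE 0.32; adjusted p = 0.000885). Gabra3 was at no more than 0.07 FPKM in MrgprA3+ control and at 1.12 to 2.87 FPKM in MrgprA3- control libraries (-1.51, SE 0.20; adjusted p = 5.32e-06), and was lower in ACD mice too (-1.40, SE 0.21). Gabra5, a subunit of extrasynaptic receptors, averaged 0.188 against 0.816 FPKM and did not pass in control mice (-0.62; adjusted p = 0.0907) unless the compared groups were fitted alone (0.0409) or the pseudocount was 0.1 (0.0327).

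Beta subunits are part of every common GABA-A receptor. Not every beta subunit is reported singly here, so the values below do not give the beta total of either population. Gabrb2 was at no more than 0.09 against 0.70 to 1.52 FPKM in control mice (-1.05, SE 0.18; limma adjusted p = 0.000146) and was lower in ACD mice by the same amount. Gabrb1 was at 0 to 0.04 FPKM in 4 MrgprA3+ control libraries and at 3.42 FPKM in replicate 5, against 2.31 to 3.98 FPKM in MrgprA3- control libraries (-1.44, SE 0.31; adjusted p = 0.00125). In ACD mice it did not exceed 0.20 FPKM in MrgprA3+ libraries (-1.90, SE 0.33; adjusted p = 0.000182).

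Of the gamma subunits, which most synaptic GABA-A receptors contain, Gabrg1 was below 0.05 FPKM in 4 MrgprA3+ control libraries and at 0.67 FPKM in replicate 1, against 0.64 to 1.06 FPKM (-0.73, SE 0.25; adjusted p = 0.0301). That call was lost without any one of MrgprA3+ replicates 2 to 5 or MrgprA3- replicates 2 to 4 (0.0523 to 0.0675), after quantile rescaling (0.241) and with the replicate block (0.0612). In ACD mice Gabrg1 was lower as well (-0.96, SE 0.26; adjusted p = 0.00969), though not after quantile rescaling (0.087). Not every gamma subunit is reported singly here, so the Gabrg1 values do not give the gamma total of either population. Gabrd, the delta subunit of extrasynaptic receptors, was not tested. It reached 4.72 FPKM in MrgprA3+ control replicate 2.

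Glrb, the glycine receptor beta subunit that binds gephyrin, was at 3.68, 10.5, 10.6, 4.34 and 14.2 FPKM in MrgprA3+ and at 18.9, 20.9, 18.5, 18.4 and 22.9 FPKM in MrgprA3- libraries of control mice. The MrgprA3+ values were widely spread and all lower (-1.26, SE 0.25; limma adjusted p = 0.000563). In ACD mice they were 7.14, 5.40, 8.16 and 5.02 against 15.99, 15.6, 18.9, 19 and 16.6 FPKM, without overlap (-1.31, SE 0.26; adjusted p = 0.000885). The ligand-binding alpha subunits listed, Glra2 and Glra3, reached at most 0.46 and 0.05 FPKM, so that Glrb made up over 97.2% of the summed glycine receptor FPKM in every library.

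Of the 23 untested subunits 17 never reached 1 FPKM and 6 reached it in 1 to 3 libraries, among them Gabra4, Gabrd, Gabrg3, Gabrr1 and Gabrr2.

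Some subunits neighbour each other in the RefSeq gene order. Gria2 and Glrb are neighbours and both were lower in control mice, as were the neighbours Gabra2 and Gabrg1.

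In ACD mice 13 of the 22 tested subunits were lower in MrgprA3+ than in MrgprA3- neurons and 0 were higher by limma, where 15.2% of all tested genes were lower and 6.84% higher. The groups did not overlap for 11 subunits, all lower, against 14.6% of genes. The median difference was -1.01 in log2 against -0.12 over all genes. With the filter within MrgprA3+ libraries 5 of 12 were lower against 11.2% of genes, with that of at least 5 FPKM 5 of 12 against 14.7%, and with that on the mean 10 of 17 against 14.1%. All 13 were also among the 17 lower in control mice, 76.5% of those. The groups set against each other in the 2 comparisons share no library, but both tests took the spread of each gene from all 19 libraries. Moreover, 8 of the 13 are among the 10 that entered through the MrgprA3- libraries of both treatments, so this overlap is partly fixed by the filter. Gria2, Grik4 and Grm7 were among those that passed in control mice alone, but their population differences in ACD and control mice were compared directly and did not differ past the threshold. That test of the difference between the 2 population differences passed for 0 of 22 subunits and for 0 of 11996 genes. At an unadjusted p under 0.05 it gave 2 subunits against 4.61% of genes: Grin3a, whose log2 difference was smaller in ACD mice by 0.87 (95% interval 0.15 to 1.60), and Grm7, by 0.54 (0.03 to 1.04).

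Dermatitis changed no subunit past the threshold in either population. In MrgprA3+ neurons limma on the 9 libraries called 0 of 22 subunits and 0 of 11996 genes (0%). At an unadjusted p under 0.05 there were 3 subunits, all higher in ACD mice, where 3.05% of genes were higher by that measure. Gria2 was at 1.38, 0.05, 0.70, 0.77 and 3.35 FPKM in control and at 4.42, 1.48, 5.37 and 1.89 FPKM in ACD mice (0.98, 95% interval 0.04 to 1.93; adjusted p = 0.875, limma). Grin3a was at 0.04, 0.05, 0.85, 0.63 and 0.09 against 0.77, 1.80, 2.35 and 0.66 FPKM (0.83, 95% interval 0.12 to 1.54; adjusted p = 0.875, limma). For Grm7, whose values are given above, the difference was 0.59 (0.08 to 1.10; adjusted p = 0.875, limma). Each of the 3 overlapped between treatments.

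Differences in MrgprA3+ neurons were positive for 20 of the 22 tested subunits, against 48.6% of all genes, with a median of 0.27 in log2 against -0.01; the exceptions were Gabrb1 (-0.33) and Glrb (-0.25). Grik1 differed by 0.33 with a 95% interval from -0.31 to 0.96, Gria1 by 0.52 (-0.48 to 1.52) and Gabra2 by 0.27 (-0.66 to 1.19). Intervals of this width include 0 and also include a rise of that size. Marker sums of some other cell classes also differed in these libraries. From control to ACD mice the mean summed FPKM in MrgprA3+ libraries was 43.9 (32.1 to 51.7) against 68.8 (56.6 to 83.2) for the 7 NP3 markers, 41.5 (29.5 to 56.1) against 64.8 (46.1 to 79.5) for the 9 large diameter markers, 23.4 (7.72 to 40.4) against 35.3 (17.7 to 49.6) for the 4 low-threshold C fibre markers and 307 (210 to 389) against 371 (305 to 438) for the 10 satellite glia markers. The sums were 1489 against 1286 for the 8 NP2 markers and 575 against 560 for the 10 NP1 markers, and 317 in both treatments for the 5 peptidergic markers (239.7 to 397 against 259 to 366). Their part in the result was not tested.

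In MrgprA3- neurons limma called 0 of 22 subunits, where 0.108% of all genes passed (12 higher, 1 lower). At an unadjusted p under 0.05 there were 3, all higher in ACD mice, against 3.66% of genes higher by that measure. Gabrg1 was at 0.68, 1.06, 0.93, 1.05 and 0.64 FPKM in control and at 1.18, 1.53, 1.67, 2.12 and 1.66 FPKM in ACD mice. It was the 1 subunit whose treatments did not overlap, against 0.75% of genes higher without overlap (0.49, 95% interval 0.19 to 0.79; adjusted p = 0.405, limma). The others were Grm8 (0.38, 0.04 to 0.72; adjusted p = 0.533) and Gria4 (0.32, 0.01 to 0.63; adjusted p = 0.568), both by limma. Grik1 differed by -0.17 (95% interval -0.43 to 0.08). The dermatitis comparisons share their libraries with the population comparisons and are given beside them, not as separate support.

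**Figure D4:**
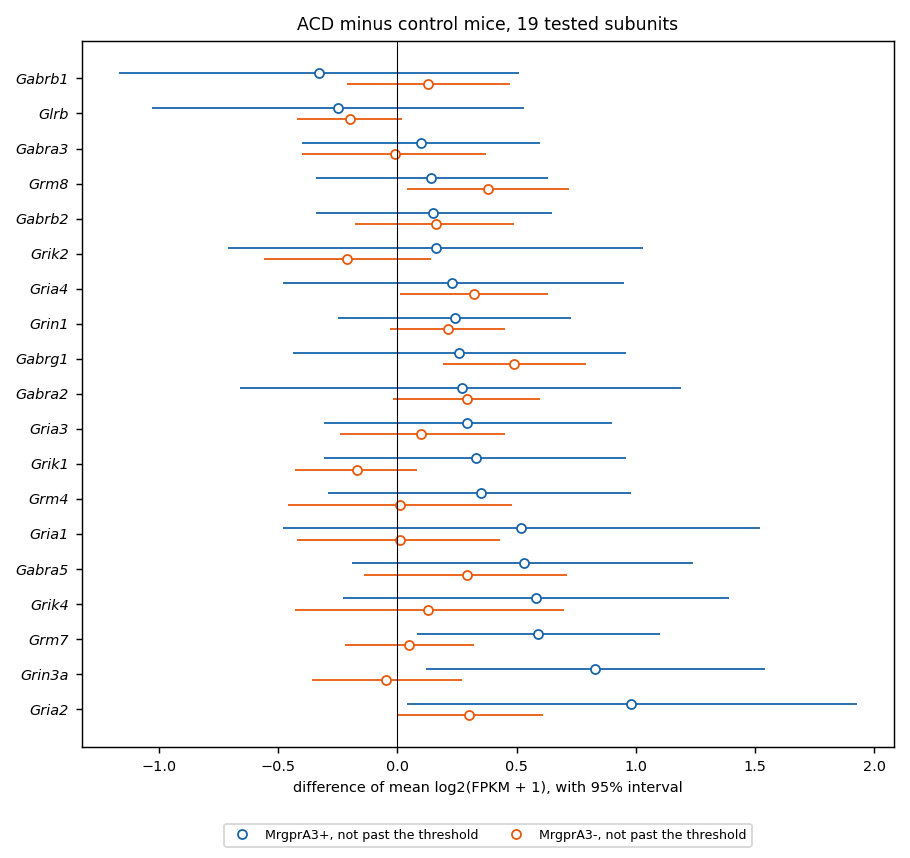
Difference between ACD and control mice for 19 of the 22 tested subunits in MrgprA3+ (blue) and MrgprA3- (orange) neurons, as the difference of mean log2(FPKM + 1) with its 95% interval. No point passed an adjusted p of 0.05, and the intervals are wider in MrgprA3+ neurons.

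Genes that act with these receptors were counted in the same way. Of 77 listed partners 73 were in the table and 47 were tested, and in MrgprA3+ neurons of control mice 13 were lower (27.7%) and 5 higher (10.6%) by limma, where 18.4% and 8.64% of all tested genes were, with a median of -0.24 in log2. In ACD mice 16 were lower (34.0%) and 6 higher (12.8%), where 15.2% and 6.84% of all tested genes were, with a median of -0.26. No test set the partners against the subunits. Partners were not sorted by the libraries through which they passed the filter, so their counts and p-values are a description too. Dermatitis called 0 of them in either population. Among vesicular glutamate transporters Slc17a8 (VGLUT3; -1.23, SE 0.23) and Slc17a7 (VGLUT1; -0.98, SE 0.22) were lower in control mice. The far more abundant Slc17a6 (VGLUT2), which loads glutamate in most sensory neurons, averaged 95.1 against 113 FPKM and did not pass in control mice (-0.27; adjusted p = 0.0951, limma). In ACD mice Slc17a6 was lower, at 88.1 against 117 FPKM (-0.41; adjusted p = 0.0186, limma), and Slc17a8 did not pass (-0.58; adjusted p = 0.0985). The differences between the treatments were not past the threshold for either gene (adjusted p = 0.994 for both, limma). The amino acid transporters Slc38a1 (-1.51, SE 0.28) and Slc38a2 (-0.71, SE 0.15) were lower too.

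AMPA receptor auxiliary subunits had 3 of 5 tested members lower and 1 higher. Cacng3 averaged 0.08 against 3.88 FPKM (-2.12, SE 0.23) and Cacng5 0.046 against 3.03 FPKM (-1.91, SE 0.28) in control mice. Both means in MrgprA3+ control libraries were far below the 1 FPKM of the filter, so these differences are a description. The higher one, named after its value was seen, was Cacng2 (stargazin), at 4.39 FPKM (SD 0.902) in MrgprA3+ and 1.36 FPKM (SD 0.709) in MrgprA3- libraries (1.22, SE 0.23; limma adjusted p = 0.000361). The kainate auxiliary subunit Neto2 averaged 3.46 against 3.63 FPKM (-0.07).

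Scaffold and trafficking genes were mostly not past the threshold. For glutamate receptors 1 of 9 was lower, Nsf (-0.54, SE 0.11), the ATPase that also binds GluA2. For GABA-A and glycine receptors 2 of 10 were higher, Gabarap (0.40, SE 0.11) and Gabarapl2 (0.30, SE 0.10), and gephyrin (Gphn), the anchor of inhibitory synapses, averaged 8.95 against 13.5 FPKM without passing (-0.60; adjusted p = 0.0779, limma). Of 5 kinase and phosphatase genes 2 were lower in control mice, the kinase subunits Camk2d (-1.45, SE 0.21) and Camk2g (-0.62, SE 0.12), and 1 was higher. In ACD mice 3 of the 5 were lower and 2 higher. Their summed FPKM averaged 340 in MrgprA3+ and 333 in MrgprA3- control libraries. The adhesion molecules Nrxn3 (-1.26, SE 0.26) and Nlgn3 (-0.61, SE 0.19) were lower in control mice as well. Of the genes that handle GABA and glycine the transaminase Abat was lower (-1.02, SE 0.20) and the glycine transporter Slc6a9 higher (0.91, SE 0.28), though in ACD mice Slc6a9 did not pass (0.50; adjusted p = 0.242, limma). The chloride importer Slc12a2 (NKCC1), which keeps sensory neuron chloride high, averaged 14.5 against 10.4 FPKM and did not pass in control mice (0.41; adjusted p = 0.0805). In ACD mice it averaged 10.8 against 6.94 FPKM and was higher in MrgprA3+ neurons (0.57; adjusted p = 0.0269, limma). These population differences were not shown to differ between treatments (0.16; adjusted p = 0.994, limma), and the dermatitis difference of Slc12a2 within MrgprA3+ neurons was -0.37 (adjusted p = 0.891, limma). The exporter Slc12a5 (KCC2) did not exceed a mean of 0.0225 FPKM in any group.

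Summed over all 45 subunits, MrgprA3+ libraries held 107 to 204 FPKM in control and 153 to 215 FPKM in ACD mice, and MrgprA3- libraries 379 to 511 and 361 to 473 FPKM. In control mice Grin1 ranked second after Grik1 in the MrgprA3+ population (19.4 FPKM, SD 3.92), ahead of Grm7 (12.8, SD 2.65), and their ranges overlapped. In MrgprA3- libraries Grm7 (26.9, SD 5.73), Grin1 (22.6, SD 1.62) and Glrb (19.9, SD 1.95) were among the subunits below Grik1, again with overlapping ranges between each and the next.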

How the data were processed

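Polyadenylated RNA of sorted neurons was sequenced, and the authors deposited FPKM values with 2 decimals for 18666 genes in 19 libraries, matched to groups by column headers. The submitters' processing notes name Bowtie2 and the mouse build mm9; the quantifier, annotation and strand setting are not stated there. Depth was inferred from the steps between low values in 1080 genes with a single transcript and came to 10.4 to 21.3 M fragments (M, 1000000); 69.6% to 78.1% of these values were no more than 0.2 steps from a whole number, where a step set beforehand would give 40%. The deposited FPKM carry no counts, so a count test was not run.

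The 11996 genes that reached 1 FPKM in 4 or more libraries were tested on log2(FPKM + 1) by limma 3.58.1 (trend and robust options, statmod 1.5.0, R 4.3.3), two-sided, with Benjamini-Hochberg adjustment over all of them and a threshold of 0.05. Population comparisons and the test of their difference used all 19 libraries, and dermatitis comparisons the 2 groups compared, because the spread differs between populations. Log2 differences understate changes at low FPKM. Errors are standard deviations for means and standard errors for differences. Each p-value sets a difference against the spread between libraries within the groups fitted. Libraries were treated as unpaired except with the replicate block. The fitting was tested on simulated data. The members, gene lists and tests were chosen with earlier results of these data known. Values per library and full statistics are given for Grik1, for subunits past the threshold with a mean of at least 5 FPKM in the higher group, and for the most abundant subunit of each family; partners are the 2 with the largest differences per role. Some subunits enter the counts and sums but are not reported singly here. Promoter windows came from RefSeq on GRCm38.p6, and no coordinate was converted from mm9. Alternatives were a pseudocount of 0.1, other filters, rescaling, other sets of libraries and a replicate block.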

Additional observations from a re-analysis of the deposited data

Results flagged for a closer look

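Within each group of 4 or 5 libraries the highest and the lowest value of 19 tested subunits were compared with the rest by Dixon's ratio on log2(FPKM + 1). Of 76 groups 15 held a value past the 95% limit. Of these, 12 were in the MrgprA3+ population (6 control, 6 ACD) and 3 in the MrgprA3- population (2 control, 1 ACD). For normally distributed values chance alone flags about 1 in 20 groups. The share flagged over all genes is not given here, and several flagged values were under 1 FPKM. The count therefore describes these groups only and is not a trait particular to the subunits.

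MrgprA3+ control replicate 5 was far above the others of its group for Gria1 (3.79 FPKM), Gabrb1 (3.42 FPKM) and Grik2 (2.42 FPKM). Replicate 1 of that group was apart for Gabra5 (0.67 FPKM) and Gabrg1 (0.67 FPKM), and replicate 3 for Gabrb2 (0.09 FPKM). Among MrgprA3+ ACD libraries replicate 5 was high for Gria3 (1.35 FPKM), Gabra3 (0.5 FPKM) and Grm8 (0.44 FPKM). Replicate 1 was high there for Gabrg1 (1.82 FPKM) and Gabrb2 (0.5 FPKM), and replicate 2 for Grm4 (1.61 FPKM). In MrgprA3- libraries Gabrb1 was high in control replicate 2 (3.98 FPKM), and Grik4 was low in control replicate 5 (6.48 FPKM) and in ACD replicate 4 (6.54 FPKM). MrgprA3+ control replicate 5, MrgprA3+ ACD replicate 5 and MrgprA3- control replicate 3 each held the highest value of their group for 9 of the 22 subunits. The corresponding share over all genes is not given here.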

How the results depend on the processing

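The count of subunits lower in MrgprA3+ neurons, 17 of 22 in control and 13 in ACD mice, moved to 9 of 12 and 5 of 12 with a filter of at least 5 FPKM, and to the same 9 and 5 with a filter within the MrgprA3+ libraries; fewer subunits were tested in both. That second filter and one on a mean of at least 1 FPKM (14 and 10 of 17) were chosen after seeing the data. Under the other settings the counts were 14 to 20 in control and 10 to 15 in ACD mice. These settings include the one without a filter on low values, which tested all 45 subunits, so not all of these counts are out of 22. Leaving out 1 library at a time gave 15 to 17 in control and 12 to 14 in ACD mice. Dermatitis and the difference between the population differences gave 0 subunits under every setting run, although 42 genes passed for MrgprA3+ neurons when all 19 libraries were fitted together. None of the values recomputed for single subunits reversed a called direction.

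Replicate numbers were not taken as pairs, since the labels do not say that a number marks a mouse. Same-numbered libraries correlated weakly (r of deviations from the group mean -0.0563 to 0.193 over 9 pairs). Yet 5 of 9 MrgprA3+ libraries correlated best with their own number, more than equal odds among 5 MrgprA3- libraries would give. Whether the numbers mark pairs is therefore not settled. With the replicate block 16 subunits passed in control and 12 in ACD mice, without Gabrg1 (adjusted p = 0.0612) and Gria3 (0.0924, both limma), and 0 in the other comparisons. Depth is known only by estimate, so no counting error is given, and subunits under about 1 FPKM rest on few fragments.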
